A study of Phalaenopsis amabilis with 15 samples.

Results

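Gene expression in the uppermost young leaves of moth orchids (Phalaenopsis) was compared between plants held for 20 days in a short photoperiod and plants sampled before any treatment. The short-photoperiod group (SD_20d) had 8 h of light a day, with 25 °C in the day and 18 °C in the night. A long-photoperiod group (LD_20d) had the same age and temperatures but 16 h of light, and serves where SD_20d is set against it. Control plants were harvested at day 0 under a 12 h light period, with 28 °C in the day and 25 °C in the night. The comparison rests on 6 of the 15 libraries of the series, 3 in each group, chosen by the labels of their count columns. Photoperiod, temperature and age change together between SD_20d and Control and cannot be told apart. All plants came from 1 stock of 120 plants grown at 70% humidity, which was split between the long and the short photoperiod. Each library pools 3 plants, and whether the pools came from separate growth chambers is not given, so p-values measure the spread between these pools. The hour of harvest is not given either. The labels name Phalaenopsis amabilis, while the counted loci and their scaffold positions belong to Phalaenopsis equestris, on a genome build not given in the sources used here. Gene symbols below are the best protein matches that the deposited table lists for each locus, mostly in Arabidopsis and rice.

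The 3 SD_20d libraries held 12992442, 11246777 and 12907648 counts, and the 3 Control libraries held 12892377, 13143196 and 13436777 counts. Across genes, log2 CPM correlated at 0.981 to 0.988 between SD_20d libraries, at 0.966 to 0.985 between Control libraries and at 0.874 to 0.911 between the groups. Control replicate 2 stood somewhat apart from the other Control libraries (0.966 with replicate 1 and 0.967 with replicate 3, against 0.985 between replicates 1 and 3). Named genes whose fold moved by over 1.5 times without it are given both ways. Leaf markers (RuBisCO small subunit, antenna proteins and RuBisCO activase) were abundant in all 6 libraries, and 0 of 6 floral organ markers passed the filter on low counts, with a summed level of 0.144 to 0.489 CPM in SD_20d and 0.408 to 0.865 CPM in Control.

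Phalaenopsis plants are known to flower after a spell of cooler temperature, and their leaves carry out crassulacean acid metabolism (CAM), in which carbon dioxide is fixed at night into malate. Day length is read in leaves through light receptors and the circadian clock, a loop of morning and evening transcription factors that repress each other and that set the daily level of many transcripts. Young leaves at the top of the shoot also still divide and expand, so their transcripts reflect growth as well as the environment.

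Of 21144 genes in the table, 16700 passed the filter on low counts. Between SD_20d and Control, 5864 of them were called at an adjusted p under 0.05 (35.1%), with 2867 higher (17.2%) and 2997 lower (17.9%) in SD_20d (edgeR quasi-likelihood test). Without Control replicate 2 the calls numbered 5353, with 2372 higher and 2981 lower. The median log2 fold change of all genes tested was 0.02, and the median size among called genes was 0.86. A change of at least 2-fold was found in 1070 of the genes that rose and 1434 of those that fell, and one of at least 8-fold in 201 and 260. CPM of the groups did not overlap in 8952 genes (53.6%). The counts for gene groups are to be read against these shares, which are drawn as dashed lines on the plot of calls per gene list. All log2 fold changes are SD_20d over Control with their standard error, and CPM are counts scaled to a common library size.

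**Figure D1:**
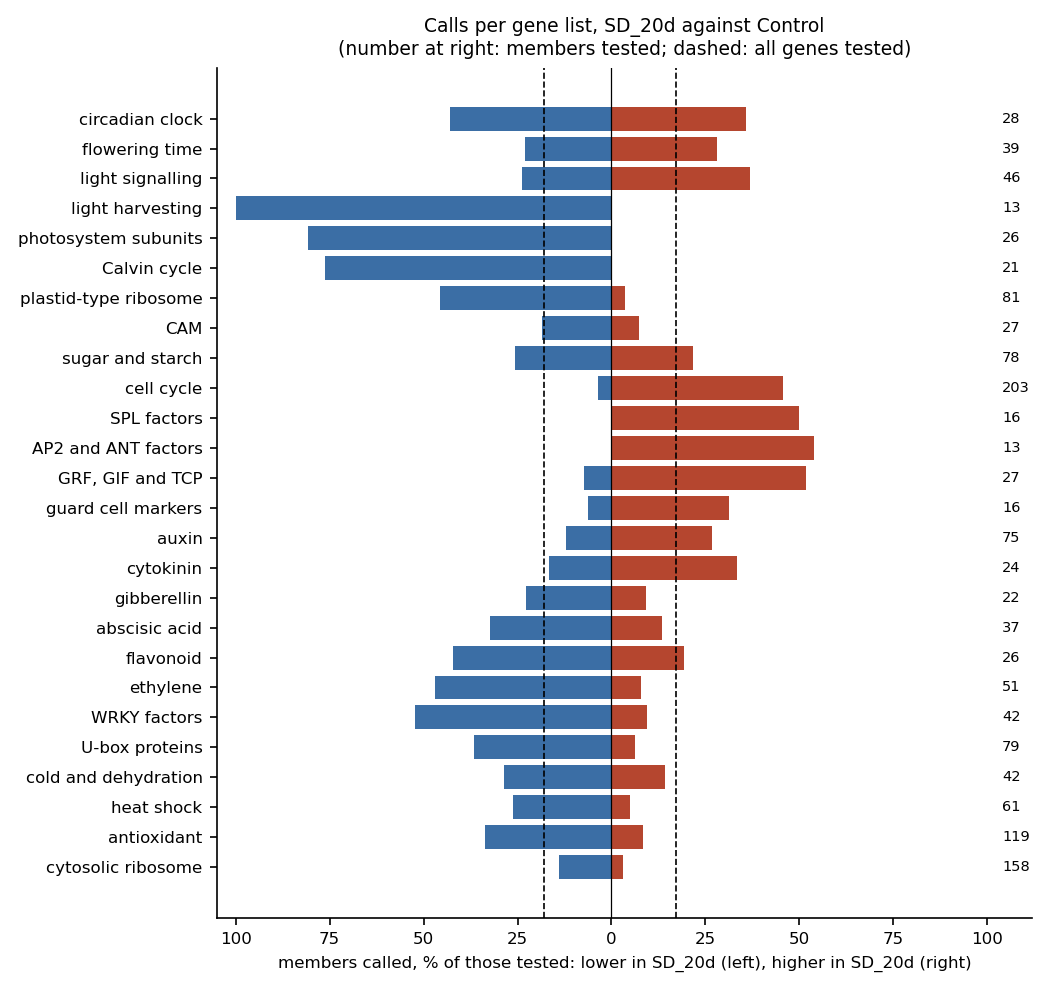
Share of tested members called in each gene list, in percent, with lower in SD_20d to the left (blue) and higher in SD_20d to the right (red). Dashed lines mark the shares over all genes tested (17.9% lower, 17.2% higher). All 13 light-harvesting genes were lower, while the calls among SPL factors and among AP2 and ANT factors were all higher and 93 of 100 among cell cycle genes were higher.

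Transcripts of the circadian clock changed in both directions. Of 30 clock genes in the table, 28 were tested, and 10 rose and 12 fell (78.6% called). Several members that peak in the evening in Arabidopsis fell, and several that peak at dawn there rose. GIGANTEA (GI, LOC110019219, scaffold NW_018164496.1, 1940442 to 1961046), an evening protein that links the clock to flowering, had 20.0, 12.8 and 15.9 CPM in SD_20d, against 639, 644 and 601 CPM in Control. It fell by 5.27 ± 0.38 (adjusted p = 1.99e-06), and the groups stood far apart. Its partner in Arabidopsis, the blue light receptor of the Adagio family (Adagio-like 3, LOC110037462), had 6.13, 7.02 and 6.20 CPM in SD_20d and 218, 262 and 192 CPM in Control and fell by 5.12 ± 0.42 (adjusted p = 5.26e-06). PRR95 (LOC110019887), one of the pseudo-response regulators that repress the dawn genes, had 22.3, 15 and 15 CPM in SD_20d and 193, 205 and 147 CPM in Control and fell by 3.38 ± 0.54 (adjusted p = 0.000509). Every SD_20d library lay below every Control library for these genes. PRR73 (LOC110039462) had 115, 121 and 113 CPM in SD_20d, against 518, 485 and 439 CPM in Control, and fell by 2.05 ± 0.20 (adjusted p = 1.6e-05). A second PRR95 locus, LOC110033028, fell by 2.02 ± 0.63 (adjusted p = 0.0242), a call that was lost with limma-voom and without SD_20d replicate 2, SD_20d replicate 3 or Control replicate 1. The PRR loci thus shared a direction, with the calls of LOC110019887 and PRR73 held in every alternative. APRR2 (LOC110022814) fell by 0.40 ± 0.12 (adjusted p = 0.0194), but its groups overlapped and its call was lost without SD_20d replicate 2 or 3 and without Control replicate 1 or 3. LNK2 (LOC110028431), a co-activator that acts with REVEILLE proteins, had 3.54, 1.79 and 2.35 CPM in SD_20d and 13.0, 27.9 and 27.7 CPM in Control and fell by 3.15 ± 0.37 (adjusted p = 6.7e-05).

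Several dawn-phased clock genes moved the other way. LHY (LOC110025280), a Myb-like repressor of evening genes, had 603, 341 and 417 CPM in SD_20d and 90.9, 48.7 and 68.4 CPM in Control, and its second locus LOC110023014 had 155, 156 and 169.9 CPM in SD_20d and 58.2, 46.6 and 65.1 CPM in Control. They rose by 2.71 ± 0.32 (adjusted p = 5.96e-05) and 1.5 ± 0.12 (adjusted p = 5.26e-06). Neither LHY locus overlapped between groups. LNK1 (LOC110035464), the relative of LNK2, went against it and rose by 2.86 ± 0.30 (adjusted p = 2.53e-05), with 85.4, 51 and 49.6 CPM in SD_20d and 9.70, 6.50 and 9.44 CPM in Control. Of the REVEILLE family, Myb-like relatives of LHY, RVE7 (LOC110021130) had 23.5, 21.5 and 14.9 CPM in SD_20d and 1.06, 0.411 and 1.02 CPM in Control. RVE7 rose by 4.56 ± 0.52 (adjusted p = 4.86e-05). RVE1 (LOC110020906), which in Arabidopsis drives auxin synthesis by day, had 26.9, 26.3 and 27.6 CPM in SD_20d and 2.28, 2.39 and 2.05 CPM in Control and rose by 3.58 ± 0.22 (adjusted p = 8.86e-07). The RVE8 (LOC110032054) and RVE5 (LOC110038163) transcripts rose by 2.66 ± 0.23 and 1.55 ± 0.11 (adjusted p = 7.91e-06 and 1.99e-06), while RVE7-like (LOC110021779), labelled as kin of RVE7, fell by 2.27 ± 0.28 (adjusted p = 8.75e-05). A second RVE1 locus, LOC110021214, was too low to test. Since the hour of harvest is not given, a change in level and a change in the daily timing of these transcripts cannot be told apart, here or for other genes that cycle over the day.

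**Figure D2:**
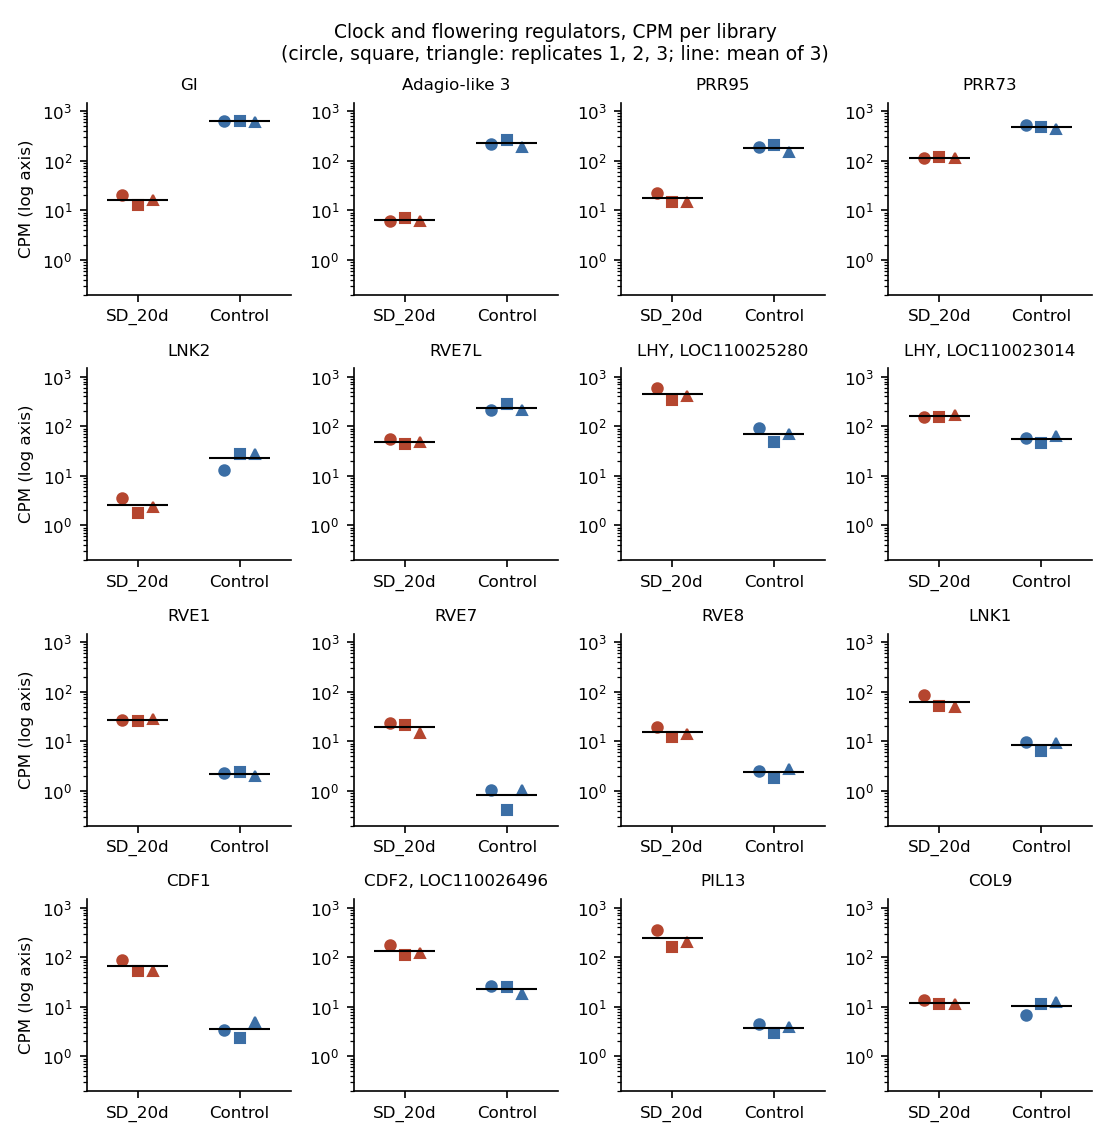
CPM per library (log axis) of 16 clock and flowering regulators, SD_20d to the left and Control to the right in each panel, with a line at the mean of 3 libraries. GI, Adagio-like 3 and PRR95 lie more than 8-fold lower in SD_20d, PIL13 and CDF1 lie more than 8-fold higher, and COL9 overlaps between the groups.

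Regulators of flowering time gave a mixed picture: of 48 in the table, 39 were tested, and 11 rose and 9 fell. This was 51.3% called, against 35.1% of all genes tested, with a median log2 fold change of 0.05. Cyclic Dof factors, known in Arabidopsis as repressors of CONSTANS and FT that the GI and Adagio proteins help to remove, were higher. CDF1 (LOC110018623) had 90.2, 51.7 and 53.7 CPM in SD_20d and 3.34, 2.39 and 4.88 CPM in Control and rose by 4.20 ± 0.31 (adjusted p = 2.13e-06). CDF2 at LOC110026496 had 173, 110.5 and 123 CPM in SD_20d and 26.8, 25.0 and 18.1 CPM in Control and rose by 2.54 ± 0.23 (adjusted p = 9.19e-06). The CDF2 loci LOC110019467 and LOC110037410 rose by 1.76 ± 0.28 and 1.16 ± 0.24 (adjusted p = 0.000515 and 0.00265), and none of the CDF2 loci overlapped between groups. CDF4 (LOC110027548) stayed below 1 CPM in every library and was not called (0.05 ± 0.54, adjusted p = 0.956).

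Several CONSTANS-like zinc finger genes were lower in SD_20d. COL16 (LOC110027162) had 25.0, 20.2 and 26.4 CPM in SD_20d and 91.1, 101 and 114 CPM in Control and fell by 2.09 ± 0.38 (adjusted p = 0.00114). COL5 (LOC110037752) and COL14 (LOC110023156) fell, with log2 fold changes of -0.98 ± 0.18 and -1.0 ± 0.18 (adjusted p = 0.00114 and 0.000894). COL9 (LOC110027028) had 13.9, 11.2 and 11.7 CPM in SD_20d and 6.85, 11.5 and 12.4 CPM in Control, overlapping values, and was not called (0.25 ± 0.24, adjusted p = 0.447). VIL2 (LOC110037314), a relative of the vernalization protein VIN3 that in rice promotes flowering, rose by 1.92 ± 0.37 (adjusted p = 0.00166), with 39.8, 55.4 and 46.6 CPM in SD_20d and 11.9, 14.6 and 10.9 CPM in Control. FRL3 (LOC110033640), a FRIGIDA-like protein, rose by 1.17 ± 0.15 (adjusted p = 0.000104).

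FT at LOC110022369, a florigen gene whose protein moves from leaf to shoot tip, was near the limit of detection, with 0.794, 0.653 and 0.997 CPM in SD_20d and 2.12, 0.987 and 1.81 CPM in Control. Its difference of -1.0 ± 0.45 was not called (adjusted p = 0.103), and replicate 3 of SD_20d was above replicate 2 of Control. A level of 3 counts in a library equals 0.231 to 0.267 CPM in SD_20d and 0.223 to 0.233 CPM in Control. SOC1 (LOC110020085), a MADS-box activator of flowering, rose by 1.77 ± 0.21 (adjusted p = 5.99e-05) with the counts as deposited, which were 71.9, 66.6 and 71.7 CPM in SD_20d and 24.4, 16.1 and 21.2 CPM in Control. These deposited entries do not match the totals of the SD_20d libraries. Counts and FPKM of SOC1 match the library totals when both are exchanged with those of the same-numbered libraries of the long photoperiod at day 40. After that exchange all 21144 genes match. With the counts exchanged SOC1 had 47.3, 29.4 and 35.9 CPM in SD_20d and rose by 0.87 ± 0.20 over Control (adjusted p = 0.00489). Counts and FPKM of SOC1 thus match the library totals only with the smaller rise, and which entry is right is not settled here. The direction of the rise is the same with both entries.

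Light signalling genes rose and fell, with more rises: of 48 in the table, 46 were tested, 17 rose and 11 fell, and the median log2 fold change was 0.34. PIL13 (LOC110028745, scaffold NW_018164962.1, 681624 to 684621), a phytochrome-interacting factor linked in rice to stem elongation, had 358, 159.6 and 201 CPM in SD_20d and 4.56, 2.96 and 3.93 CPM in Control and rose by 5.97 ± 0.41 (adjusted p = 1.99e-06). Among genes with a clear mean level this was one of the 8 steepest rises, and the groups were far apart. Its relative PIL15 (LOC110022360) rose by 1.146 ± 0.16 (adjusted p = 0.000216). SPA3 (LOC110029638) and SPA1 (LOC110021427), both partners of the light-signalling ubiquitin ligase COP1, parted: SPA3 had 208, 163 and 176 CPM in SD_20d and 31.9, 33.1 and 47.2 CPM in Control and rose by 2.28 ± 0.19 (adjusted p = 5.28e-06), and SPA1 fell by 1.53 ± 0.14 (adjusted p = 8.79e-06). Light receptors moved by less, and in both directions. Of these, the blue light receptor CRY2 (LOC110020374) and the red and far-red receptor PHYA (LOC110030616) rose by 0.88 ± 0.10 and 0.84 ± 0.11 (adjusted p = 5.99e-05 and 0.000142). The phototropin PHOT1 (LOC110038237), which steers growth and chloroplast movement in blue light, fell by 0.71 ± 0.10 (adjusted p = 0.000165). Downstream of the receptors, PKS4 (LOC110026444), a phytochrome kinase substrate, rose by 2.97 ± 0.51 (adjusted p = 0.000758). One light-protection gene stood out by its fall. ELIP1 (LOC110024270), an early light-induced protein that protects against excess light, had 20.8, 36.5 and 34 CPM in SD_20d and 170.3, 186 and 74.7 CPM in Control and fell by 2.24 ± 0.34 (adjusted p = 0.000315).

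Genes of the antennae, the photosystems and the Calvin cycle were lower in SD_20d. All 13 light-harvesting genes, whose proteins hold the chlorophyll of the antennae, were tested and all 13 fell, by 0.78 to 3.07, with a median of -1.47. Their summed level was 20539, 16715 and 18878.5 CPM in the SD_20d libraries and 55986, 61098 and 47666 CPM in the Control libraries. LHCA4 (LOC110028982, scaffold NW_018164980.1, 275242 to 276585), an antenna protein of photosystem I, had 657, 508 and 612 CPM in SD_20d and 5185, 5354 and 4423 CPM in Control and fell by 3.07 ± 0.21 (adjusted p = 1.99e-06). CAB40 at LOC110022745 had 135, 103 and 123 CPM in SD_20d and 877, 981 and 700.0 CPM in Control and fell by 2.83 ± 0.20 (adjusted p = 1.99e-06), and a second CAB40 locus, LOC110038717, fell by 1.66 ± 0.23 (adjusted p = 0.000183). Both loci thus fell, the first by more. LHCB3 (LOC110019911), an antenna protein of photosystem II, fell by 2.59 ± 0.37 (adjusted p = 0.000256). At the other end CAB37 (LOC110031670), CAB8 (LOC110023588) and LHCB7 (LOC110023083) fell, with log2 fold changes of -0.91 ± 0.20, -0.78 ± 0.17 and -0.87 ± 0.19, with adjusted p of 0.00402, 0.00398 and 0.00352. No antenna gene overlapped between the groups. Antenna genes form families of similar sequence, so reads may be shared between loci. In leaf samples such as these, a smaller share of mature green cells and less transcript per cell cannot be told apart, and the part of dividing tissue, whose genes rose (described below), was not tested.

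Of 28 photosystem and electron transport genes, 26 were tested, 0 rose and 21 fell, with a median of -1.23. PSBQ2 (LOC110031928), a subunit of the oxygen-evolving complex, had 1234, 995 and 1149.9 CPM in SD_20d and 3546, 3901 and 3324 CPM in Control and fell by 1.67 ± 0.19 (adjusted p = 5.42e-05). PSAF (LOC110029064), a subunit of photosystem I, had 321, 263 and 295 CPM in SD_20d and 737, 685 and 733 CPM in Control and fell by 1.29 ± 0.14 (adjusted p = 3.5e-05). PSB27-1 (LOC110039110), a repair factor of photosystem II, and PSBS (LOC110028411), which sheds excess light energy as heat, fell, with log2 fold changes of -1.84 ± 0.24 and -1.55 ± 0.21 (adjusted p = 0.000135 and 0.000144). The falls in this list were more even than in the antennae, with called members between -1.84 and -0.57.

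Calvin cycle genes, which fix carbon dioxide by day, were also lower: of 24 in the table, 21 were tested, 0 rose and 16 fell, and all 21 had a negative log2 fold change with a median of -0.86. RBCS (LOC110030192), the small subunit of RuBisCO, had 797, 719.8 and 684 CPM in SD_20d and 2316, 2549.9 and 1823 CPM in Control and fell by 1.60 ± 0.26 (adjusted p = 0.000601). RPI3 (LOC110024323), a ribose-5-phosphate isomerase, had 193, 129 and 143 CPM in SD_20d and 429, 445 and 405 CPM in Control and fell by 1.46 ± 0.20 (adjusted p = 0.000148). Neither of these overlapped between the groups. The chloroplast enzymes GAPA (LOC110033351), fructose-1,6-bisphosphatase (LOC110018294) and transketolase (LOC110028778) fell, with log2 fold changes of -1.08 ± 0.21, -1.13 ± 0.16 and -0.86 ± 0.22, with adjusted p of 0.00159, 0.000198 and 0.00787. PGLP1A (LOC110027215), a photorespiratory phosphatase, fell by 1.05 ± 0.18 (adjusted p = 0.000792). Not every member was called. Phosphoribulokinase (LOC110018947) overlapped between the groups and was not called (-0.06 ± 0.20, adjusted p = 0.829), and RuBisCO activase (LOC110026894) had -0.58 ± 0.28 and was not called either (adjusted p = 0.13). Ribosomal proteins of the plastid type followed the same direction, with 3 called higher and 37 lower of 81 tested (49.4%, median -0.37).

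Chlorophyll synthesis genes had 1 called higher and 5 lower of 15 tested (40% called, against 35.1% of all genes tested) and a median of -0.16. Protochlorophyllide reductase (POR1, LOC110033798), the light-driven step, had 888, 832 and 938 CPM in SD_20d and 1541, 1843 and 1459 CPM in Control and fell by 0.87 ± 0.15 (adjusted p = 0.000701). CAO (LOC110035673), the oxygenase that makes chlorophyll b, was the member that rose, by 1.38 ± 0.16 (adjusted p = 5.97e-05), with 275, 213 and 232 CPM in SD_20d and 103, 77.2 and 96.4 CPM in Control.

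**Figure D3:**
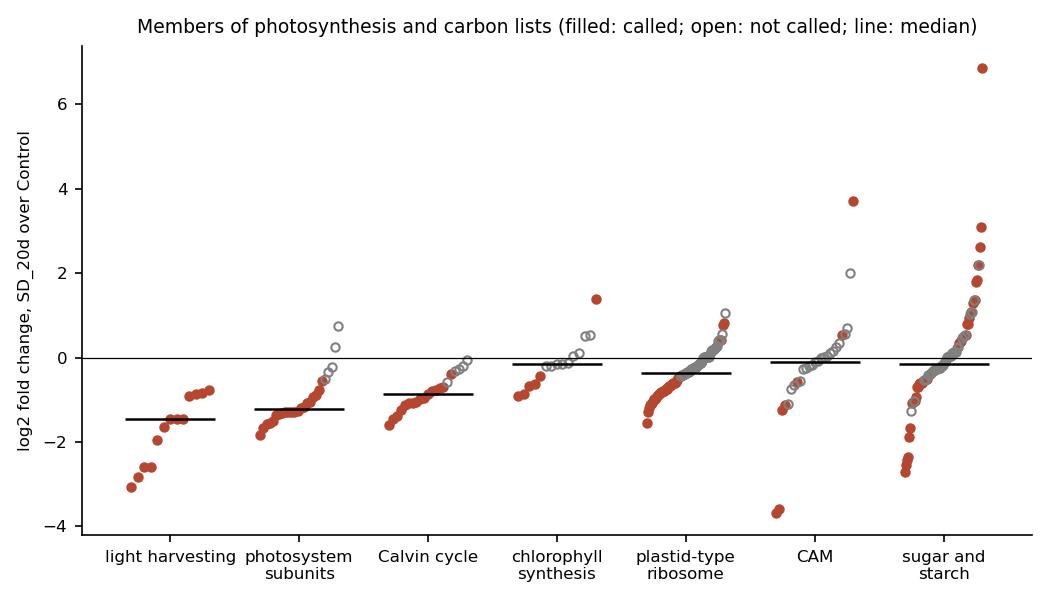
Log2 fold change of SD_20d over Control for every tested member of 7 lists (1 point per gene, filled where called, line at the median). Light-harvesting genes lie between -3.07 and -0.78, all below 0, and the CAM and the sugar and starch lists spread to both sides.

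CAM genes were called in both directions: of 38 genes in the table, 27 were tested, and 2 rose and 5 fell. The 25.9% called was below the 35.1% of all genes tested, and 11 of 26 were called in a fit to the 2 groups alone. PPC2 (LOC110027447, scaffold NW_018164869.1, 5716320 to 5731872), a locus of PEP carboxylase, the enzyme that fixes carbon at night, had 395, 239 and 263 CPM in SD_20d and 3559.7, 3882 and 4047 CPM in Control. It fell by 3.68 ± 0.70 (adjusted p = 0.00157), and its SD_20d libraries lay below all Control libraries. The other PEP carboxylase 2 locus, LOC110022615, had 276, 304 and 298 CPM in SD_20d and 313, 332 and 281 CPM in Control and was not called (-0.08 ± 0.12, adjusted p = 0.65). Neither locus of the kinase that activates PEP carboxylase was called: PPCK1 at LOC110038259 had 12.5, 7.42 and 6.69 CPM in SD_20d and 6.19, 10.4 and 15.4 CPM in Control (-0.27 ± 0.70, adjusted p = 0.8), and PPCK1 at LOC110023763 had 0.57 ± 0.29 (adjusted p = 0.15). A chloroplast carbonic anhydrase (LOC110024122), which supplies bicarbonate, had 45.3, 15.7 and 15.4 CPM in SD_20d and 401, 218 and 301 CPM in Control and fell by 3.59 ± 0.66 (adjusted p = 0.00122).

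Transport of malate across the vacuole membrane showed changes in both directions. The tonoplast dicarboxylate transporter (TDT, LOC110038403) had 236, 205 and 221 CPM in SD_20d and 13.0, 17.4 and 20.1 CPM in Control and rose by 3.71 ± 0.60 (adjusted p = 0.000518). ALMT9 (LOC110028243), a vacuolar malate channel, and MD1 (LOC110031066), a malate dehydrogenase, fell, with log2 fold changes of -1.13 ± 0.22 and -1.24 ± 0.29 (adjusted p = 0.00158 and 0.00571). The groups did not overlap for any of these. ME1 (LOC110029680), an NADP-dependent malic enzyme, rose by 0.53 ± 0.19 at the edge of the threshold (adjusted p = 0.0491), and its call was lost when any library of SD_20d, Control or LD_20d was left out.

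Sugar and starch genes moved both ways, with 17 called higher and 20 lower of 78 tested (47.4%, against 35.1% of all genes tested). Without SD_20d replicate 2 these were 9 and 14, and without SD_20d replicate 3 they were 10 and 14. Genes of starch synthesis differed among themselves. SS4 (LOC110022663), a starch synthase, had 111, 79.6 and 85.0 CPM in SD_20d and 23.5, 29.4 and 26.4 CPM in Control and rose by 1.80 ± 0.24 (adjusted p = 0.000148). APS1 (LOC110030299), a subunit of the enzyme that makes ADP-glucose, had 214, 128 and 141 CPM in SD_20d and 742, 489 and 555 CPM in Control and fell by 1.89 ± 0.44 (adjusted p = 0.00497). ISA1 (LOC110024758), an isoamylase, fell by 1.66 ± 0.18 (adjusted p = 3.04e-05). Of the beta-amylases, BAM3 (LOC110020311), which breaks starch down to maltose, had 111, 46.4 and 49.4 CPM in SD_20d and 9.37, 17.6 and 18.6 CPM in Control and rose by 2.18 ± 0.44 (adjusted p = 0.00212). BAM7 (LOC110030672), which in Arabidopsis acts as a transcription factor, fell by 2.36 ± 0.52 (adjusted p = 0.00382).

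Enzymes that attach galactose to sucrose to make raffinose were lower, with 4 of 5 tested called lower and 0 higher. RFS6 at LOC110035212 had 9.67, 11.3 and 9.69 CPM in SD_20d and 59.9, 61.5 and 78.6 CPM in Control. The RFS6 loci LOC110035212, LOC110024075 and LOC110039017 fell, with log2 fold changes of -2.71 ± 0.21, -2.54 ± 0.21 and -2.43 ± 0.20 (adjusted p = 2.82e-06, 5.28e-06 and 5.26e-06). These 3 loci moved by nearly the same amount, and reads could be shared between them if their sequences are similar. This family was grouped after its values were seen.

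Genes of cell division were higher in SD_20d. Of 227 cell cycle and histone genes in the table, 203 were tested, and 93 rose and 7 fell (49.3% called). The median log2 fold change was 0.60. Their summed level was 10073.8, 12267 and 11848.5 CPM in SD_20d and 7395, 8472 and 7407 CPM in Control. Cyclin B1-1 (CYCB1-1, LOC110022652, scaffold NW_018164644.1, 2284335 to 2287150), which drives entry into mitosis, had 47.8, 74.3 and 71.4 CPM in SD_20d and 0.978, 2.55 and 0.708 CPM in Control and rose by 5.51 ± 1.09 (adjusted p = 0.00188). CYCB2-2 (LOC110025718), a second B-type cyclin, had 36.4, 56.7 and 49.0 CPM in SD_20d and 0.652, 2.06 and 1.34 CPM in Control and rose by 5.12 ± 0.91 (adjusted p = 0.000967). Without Control replicate 2 the rise of CYCB1-1 was 6.21. Both cyclins were low in every Control library and several-fold higher in every SD_20d library. The kinesin KIN12C (LOC110035815), a motor of the dividing cell plate, had 53.6, 80.7 and 72.3 CPM in SD_20d and 5.46, 6.66 and 4.56 CPM in Control and rose by 3.63 ± 0.52 (adjusted p = 0.000221). Motors and kinases of mitosis shared this direction. KIN14C (LOC110034037), another kinesin, and Aurora-3 (AUR3, LOC110030091), a mitotic kinase, rose by 1.71 ± 0.17 and 1.43 ± 0.23 (adjusted p = 1.5e-05 and 0.000545). Cyclin, histone and polymerase genes rose as well: cyclin A2-1 (CYCA2-1, LOC110025329) by 1.63 ± 0.22, histone H2B.11 (LOC110022930) by 1.08 ± 0.19 and the DNA polymerase subunit POLD2 (LOC110036427) by 0.94 ± 0.10, with adjusted p of 0.00015, 0.000806 and 2.53e-05. Only 7 members fell. KRP1 (LOC110029047), an inhibitor of cyclin-dependent kinases, was among them, with 8.88, 6.61 and 9.83 CPM in SD_20d and 22.9, 31.3 and 29.4 CPM in Control, and fell by 1.72 ± 0.33 (adjusted p = 0.00154).

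Control replicate 2 was the Control library with the highest level in 123 of the 203 tested cell cycle genes and in 60 of the 93 that rose, against 1255 of the 2867 genes that rose over the whole table. Without it 89 members rose and 7 fell, and the median was 0.67. The plot of cell cycle genes by library shows the 93 genes in each library.

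**Figure D4:**
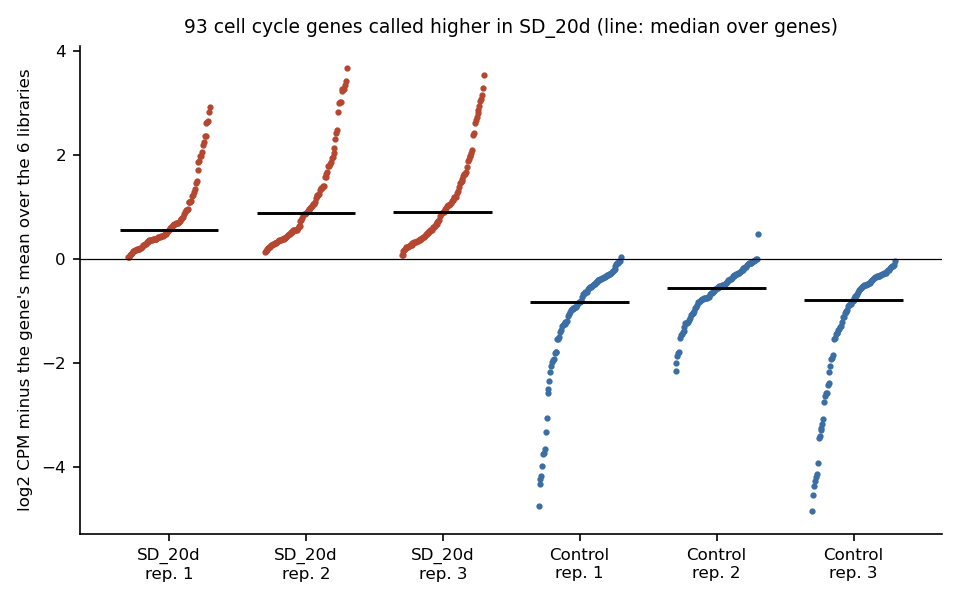
Log2 CPM of the 93 cell cycle genes called higher in SD_20d, minus each gene's mean over the 6 libraries (1 point per gene, line at the median). The medians are 0.55, 0.89 and 0.89 in the SD_20d libraries and -0.82, -0.55 and -0.79 in the Control libraries, where replicate 2 is the highest.

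The 8 steepest rises, among called genes with a mean log2 CPM of at least 2 over all 15 libraries and groups that do not overlap, held CYCB1-1 and the following 5 genes. ABCG5 (LOC110038912), an ABC transporter, had 238, 305 and 292 CPM in SD_20d and 0.978, 10.2 and 0.393 CPM in Control and rose by 6.18 ± 1.06 (adjusted p = 0.000772). TUBB2 (LOC110022085), a beta tubulin, had 95.1, 169 and 143 CPM in SD_20d and 2.53, 12.5 and 1.73 CPM in Control and rose by 4.60 ± 1.05 (adjusted p = 0.00456). YABBY 4 (YAB4, LOC110034047), of a family of factors that set the faces of the leaf, had 40.3, 56.8 and 70.9 CPM in SD_20d and 1.55, 4.77 and 0.865 CPM in Control and rose by 4.55 ± 0.98 (adjusted p = 0.00336). Control replicate 2 was the highest Control library for each of these, yet far below the lowest SD_20d library. Patellin-4 (PATL4, LOC110028702) and the wax ester synthase WSD4 (LOC110029698) showed the same order, and rose by 4.55 ± 1.03 and 4.48 ± 0.91 (adjusted p = 0.0044 and 0.00219). Without Control replicate 2 the log2 fold changes were 8.62 for ABCG5, 5.96 for TUBB2, 5.50 for YAB4, 6.66 for PATL4 and 5.84 for WSD4, so the size of each rise leaned on that library.

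Several transcription factors of leaf growth rose. Of 27 tested GRF, GIF and TCP genes, 14 rose and 2 fell (median 0.45). This count came to 8, 9, 8 and 8 calls in all without SD_20d replicate 2, SD_20d replicate 3, Control replicate 1 and Control replicate 3. Of the 11 tested growth-regulating factors (GRF) and their GIF partners alone, a split made after the values were seen, 8 rose and 0 fell. GRF6 (LOC110018686), a GRF that in other plants promotes cell proliferation in leaves, had 102, 153 and 134 CPM in SD_20d and 12.1, 33.3 and 12.0 CPM in Control and rose by 2.76 ± 0.56 (adjusted p = 0.00222). Without Control replicate 2 it was 3.40. GRF1 (LOC110030268) had 4.76, 8.48 and 7.98 CPM in SD_20d and 0.0815, 0.247 and 0.157 CPM in Control and rose by 5.37 ± 1.04 (adjusted p = 0.00164). The co-activator GIF1 (LOC110029280) rose by 0.89 ± 0.22 (adjusted p = 0.00706). TCP3 (LOC110027569), known for promoting leaf maturation, rose by 2.03 ± 0.69 (adjusted p = 0.0344), with its call lost without SD_20d replicate 2 or 3 and without Control replicate 1 or 3. Its rise was 2.88 without Control replicate 2.

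SPL factors, which mark the passage from juvenile to adult growth, and their AP2-type counterparts were higher or not called. All 16 tested SPL genes had a positive log2 fold change, 8 rose and 0 fell, with a median of 0.95. SPL12 (LOC110039299) had 83.1, 74.8 and 81.5 CPM in SD_20d and 36.9, 26.4 and 31.2 CPM in Control and rose by 1.34 ± 0.19 (adjusted p = 0.000211). Of 13 tested AP2 and AINTEGUMENTA-like genes, 7 rose and 0 fell (median 0.91). AP2-3 (LOC110028443), an APETALA2-like protein, had 82.7, 76.1 and 93.4 CPM in SD_20d and 24.3, 24.8 and 27.1 CPM in Control and rose by 1.73 ± 0.26 (adjusted p = 0.00031). AIL5 (LOC110027883) and AINTEGUMENTA (ANT, LOC110029871), regulators of organ growth, rose by 4.75 ± 1.11 and 3.87 ± 1.18 (adjusted p = 0.00522 and 0.0211). The call for ANT was lost without SD_20d replicate 2 or 3 and without Control replicate 1 or 3, and its Control libraries ranged widely, at 0.245, 4.69 and 0 CPM. Without Control replicate 2 the fitted values were 5.81 for AIL5 and 7.51 for ANT, which rest on few Control counts.

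Calls among stomatal and vascular genes were near the 35.1% of all genes tested. Of 16 tested guard cell and stomatal lineage genes, 5 rose and 1 fell (37.5%), and these came to 3, 2 and 3 calls in all without SD_20d replicate 2, SD_20d replicate 3 and Control replicate 3. Their summed level was 108, 146 and 143 CPM in SD_20d and 185, 167 and 151 CPM in Control, so the list was lower in sum. EPFL6 (LOC110021258), a secreted peptide that in Arabidopsis restrains stomatal formation, had 8.51, 13.7 and 10.5 CPM in SD_20d and 1.96, 2.88 and 1.18 CPM in Control and rose by 2.44 ± 0.37 (adjusted p = 0.000338). EPFL9 (LOC110018723), which promotes stomata, had -0.64 ± 0.25 and was not called (adjusted p = 0.0645). SPEECHLESS (SPCH, LOC110029739), which starts the stomatal lineage, rose by 5.16 ± 1.67 from very low counts (adjusted p = 0.0287), a call lost without any single library of SD_20d or Control except SD_20d replicate 1. Its only Control count was in replicate 3, without which the fitted value of 7.10 depends on the prior count. WOX4 (LOC110026126), a homeobox gene of the vascular cambium, had 2.45, 3.02 and 2.99 CPM in SD_20d and 0.163, 0.329 and 0.0787 CPM in Control and rose by 3.83 ± 0.71 (adjusted p = 0.00126). Of 24 tested vascular genes 5 rose and 2 fell (29.2%), and 2, 3, 4 and 3 were called in all without SD_20d replicate 2, SD_20d replicate 3, Control replicate 1 and Control replicate 3. Of 13 tested meristem genes 1 rose and 1 fell.

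Of 187 tested genes of a defence list, which holds the WRKY factors, 23 rose and 45 fell (36.4% called), with a median of -0.02, so calls were near the 35.1% of all genes tested. Of 42 tested WRKY factors, which act in defence and leaf ageing, 4 rose and 22 fell with a median of -0.96, a family grouped after its values were seen. WRKY70 (LOC110036650, scaffold NW_018228544.1, 512507 to 514779) had 8.08, 8.24 and 11.6 CPM in SD_20d and 287, 283 and 355 CPM in Control and fell by 5.05 ± 0.35 (adjusted p = 1.99e-06). WRKY53 (LOC110022599), linked in Arabidopsis to leaf senescence, had 2.60, 1.22 and 2.21 CPM in SD_20d and 108, 89.3 and 93.9 CPM in Control and fell by 5.57 ± 0.76 (adjusted p = 0.000168), while DESeq2 gave it no adjusted p. WRKY40 (LOC110039248) fell by 3.39 ± 0.49 (adjusted p = 0.000259). For each of these the highest SD_20d library was several-fold below the lowest Control library. U-box proteins, many of them ubiquitin ligases, had 5 called higher and 29 lower of 79 tested (43%), again grouped after their values were seen. PUB44 (LOC110033451) had 33.0, 33.0 and 47.6 CPM in SD_20d and 1291, 1695 and 2130.1 CPM in Control and fell by 5.49 ± 0.75 (adjusted p = 0.000163).

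Ethylene-related genes, including ERF transcription factors, fell in 24 and rose in 4 of 51 tested (94 in the table), with a median of -1.28. PTI5 (LOC110032898), an activator of defence genes, had 0.505, 1.55 and 1.57 CPM in SD_20d and 18.7, 21.9 and 21.9 CPM in Control and fell by 4.10 ± 0.47 (adjusted p = 5.27e-05). ERF1A (LOC110028628), ERF053 (LOC110032984) and RAP2-2 (LOC110028699), a regulator of the response to low oxygen, fell, with log2 fold changes of -2.47 ± 0.42, -4.15 ± 0.71 and -1.67 ± 0.25 (adjusted p = 0.000781, 0.000787 and 0.000285). ERF053 was at -3.55 without Control replicate 1. Putative lipoxygenase 5 (LOC110022556), of the pathway to jasmonate and related lipids, had 21.9, 21.1 and 21.7 CPM in SD_20d and 162, 281 and 268 CPM in Control and fell by 3.46 ± 0.45 (adjusted p = 0.000128). Calmodulin (CAL1, LOC110026663), a calcium sensor, fell by 1.76 ± 0.17 (adjusted p = 1.58e-05), while CIPK18 (LOC110028468), a kinase that acts with calcium sensors, rose by 3.41 ± 0.24 (adjusted p = 1.99e-06).

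The SD_20d plants stood in cooler air than the Control plants, and genes named for cold and dehydration were lower more often than higher. Of 60 in the table, 42 were tested, and 6 rose and 12 fell (median -0.37). This was 42.9% called, against 35.1% of all genes tested. The DREB1 factors, also called CBF, activate cold-response genes in many plants. DREB1E at LOC110029469 had 0.577, 0.163 and 1.14 CPM in SD_20d and 38.7, 64.7 and 47.7 CPM in Control and fell by 6.27 ± 1.33 (adjusted p = 0.003). DREB1E at LOC110034223 and DREB1A (LOC110018480) had no count in SD_20d, against 2.69, 2.96 and 0.944 CPM and 2.61, 5.43 and 5.74 CPM in Control, which is at least 29.2-fold and 61.6-fold lower in SD_20d against a floor of 3 counts over the group. The first was called (adjusted p = 0.00317), and the call of DREB1A (adjusted p = 0.0215) was lost when any SD_20d library was left out. DREB2E (LOC110020714) and DREB3 (LOC110030261), relatives in the same family, rose by 3.00 ± 0.93 and 0.78 ± 0.23 (adjusted p = 0.0265 and 0.0167). Both calls were lost without SD_20d replicate 2 and without Control replicate 1 or 3, and that of DREB3 also without SD_20d replicate 3. All Control counts of DREB2E came from replicate 2, without which its fitted value of 7.18 depends on the prior count. The fall of DREB1E at LOC110029469 was -7.01 on the log2 scale without SD_20d replicate 3. Among the other DREB loci, DREB2A at LOC110026555 fell by 1.03 ± 0.28 (adjusted p = 0.012), a call lost without Control replicate 3, and the 5 further loci tested (LOC110020427, LOC110017890, LOC110030383, LOC110020844 and LOC110019373) were not called, with adjusted p from 0.0676 to 0.992. A pair of genes named for cold itself parted. COR27 (LOC110028958), a cold-regulated gene that in Arabidopsis is also tied to the clock, had 29.3, 28.2 and 23.2 CPM in SD_20d and 150.3, 124 and 206 CPM in Control and fell by 2.57 ± 0.18 (adjusted p = 1.99e-06). CRPK1 (LOC110018754), a cold-responsive protein kinase, rose by 1.13 ± 0.14 (adjusted p = 0.000101). LEA5 (LOC110030080), a protein of drying tissues, had 126, 86.0 and 136 CPM in SD_20d and 1398, 933 and 1417 CPM in Control and fell by 3.43 ± 0.44 (adjusted p = 0.00011).

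Heat shock genes had 3 called higher and 16 lower of 61 tested (31.1% called, against 35.1% of all genes tested). In a fit to the 2 groups alone these were 12 and 23 of 59. HSFA3 (LOC110031431), a heat stress factor, had 3.82, 3.34 and 3.06 CPM in SD_20d and 19.2, 9.95 and 15.1 CPM in Control and fell by 2.11 ± 0.26 (adjusted p = 8.04e-05). HSP70-4 (LOC110024865), a chaperone, fell by 0.80 ± 0.21 (adjusted p = 0.0106), a call lost without replicate 3 of either group. HSFB4 (LOC110036572), a factor of the same family that in Arabidopsis acts in root development, had 21.9, 36.2 and 36.2 CPM in SD_20d and 0, 1.07 and 0 CPM in Control and rose by 6.44 ± 1.23 (adjusted p = 0.00156). All 13 Control counts of HSFB4 came from replicate 2, which decides the size of this fold, and without it the fitted value of 11.69 depends on the prior count. The chloroplast co-chaperone DJC76 (LOC110018084, scaffold NW_018164444.1, 70320486 to 70324080) had 3.32, 2.53 and 2.56 CPM in SD_20d and 186, 165 and 167 CPM in Control and fell by 5.94 ± 0.26 (adjusted p = 2.69e-08). The 3 libraries of each group were close for this gene.

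Antioxidant genes fell in 40 and rose in 10 of 119 tested (42% called, against 35.1% of all genes tested). In all, 32 were called without SD_20d replicate 2, without SD_20d replicate 3 or without Control replicate 3. Catalase isozyme 2 (CAT2, LOC110018565), which breaks down hydrogen peroxide, had 4187, 3117 and 3626 CPM in SD_20d and 9779, 10726 and 11386 CPM in Control and fell by 1.54 ± 0.21 (adjusted p = 0.000157). GSTU19 (LOC110035233), a glutathione transferase, fell by 3.21 ± 0.31 (adjusted p = 1.59e-05). The steepest falls with a clear mean level also held an L-ascorbate oxidase homolog (LOC110033152), with 1.01, 1.96 and 1.42 CPM in SD_20d and 98.5, 174 and 157 CPM in Control, which fell by 6.61 ± 1.17 (adjusted p = 0.000965). The nudix hydrolase NUDT4 (LOC110028568), the cell wall enzyme XTH23 (LOC110024608) and the phosphodiesterase GDPD1 (LOC110037507), which frees phosphate from lipids, fell, with log2 fold changes of -6.16 ± 0.97, -5.56 ± 1.09 and -5.41 ± 1.21 (adjusted p = 0.000443, 0.00185 and 0.00398). None of these overlapped between the groups, which the rule that chose them required. Without SD_20d replicate 3 the log2 fold changes of NUDT4 and XTH23 were -6.85 and -6.26, and without Control replicate 2 that of GDPD1 was -4.77.

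Hormone genes changed in part. Gibberellins promote growth, and GA2OX enzymes inactivate them. Of 35 gibberellin genes in the table, 22 were tested, and 2 rose and 5 fell (31.8% called, against 35.1% of all genes tested). GA2OX8 (LOC110022722) had no count in SD_20d and 5.22, 4.69 and 4.01 CPM in Control, which is at least 62-fold lower in SD_20d (adjusted p = 0.001). GA2OX3 (LOC110029670) had 0.505, 1.79 and 1.14 CPM in SD_20d and 23.2, 22.9 and 25.1 CPM in Control and fell by 4.38 ± 0.93 (adjusted p = 0.00299). GA2OX2 at LOC110025896 and GA2OX1 (LOC110038145) fell, with log2 fold changes of -4.58 ± 0.81 and -4.05 ± 1.08 (adjusted p = 0.000932 and 0.011), the last from 2 counts in SD_20d. With that few counts GA2OX1 was 19.5 times higher in Control than in SD_20d, with a 95% counting interval of 5.01 to 167. Among the other GA2OX loci tested, GA2OX2 at LOC110021750 and GA2OX6 at LOC110023229, LOC110023759 and LOC110033879 were not called, with adjusted p from 0.0786 to 0.986. The gibberellin receptor GID1C (LOC110030604) had 40.8, 33.1 and 37.2 CPM in SD_20d and 121, 125 and 117 CPM in Control and fell by 1.71 ± 0.17 (adjusted p = 1.85e-05).

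For abscisic acid, a hormone of water stress, 5 genes rose and 12 fell of 37 tested (45.9% called, against 35.1% of all genes tested). Loci matched to a synthesis and to a breakdown enzyme fell. NCED1 (LOC110033126) had 36.7, 35.8 and 41.9 CPM in SD_20d and 116, 114 and 96.7 CPM in Control and fell by 1.52 ± 0.18 (adjusted p = 7.96e-05). Its deposited description names a zeaxanthin cleavage dioxygenase instead, so its part in abscisic acid synthesis is uncertain. The breakdown hydroxylase CYP707A2 (LOC110030934) fell by 2.38 ± 0.46 (adjusted p = 0.00159). The receptor PYL8 (LOC110019816) fell by 1.72 ± 0.33 (adjusted p = 0.00172). PP2C06 (LOC110022579), a type 2C protein phosphatase, had 162, 128 and 132 CPM in SD_20d and 11.2, 13.7 and 14.9 CPM in Control and rose by 3.41 ± 0.15 (adjusted p = 2.69e-08).

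Auxin genes rose in 20 and fell in 9 of 75 tested (38.7% called, against 35.1% of all genes tested). Without Control replicate 1 these were 13 and 4 of 76. YUC2 (LOC110028281), which makes auxin, had 1.80, 2.12 and 2.14 CPM in SD_20d and no count in Control, at least 25-fold higher in SD_20d (adjusted p = 0.00339). The auxin response factor ARF11 (LOC110023973) had 13.1, 22.6 and 19.2 CPM in SD_20d and 0.897, 3.29 and 0.551 CPM in Control and rose by 3.53 ± 0.63 (adjusted p = 0.00096), or by 4.61 without Control replicate 2. IAA6 (LOC110021205), a repressor of auxin response, fell by 1.89 ± 0.17 (adjusted p = 8.57e-06). Of 24 cytokinin genes tested 8 rose and 4 fell (50% called), and LOG1 (LOC110036346), an enzyme that activates cytokinins, fell by 2.54 ± 0.25 (adjusted p = 1.82e-05).

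Flavonoid genes, which make pigments and light-screening compounds, had 5 called higher and 11 lower of 26 tested, and 4 and 6 without SD_20d replicate 2. Chalcone synthase (CHS8, LOC110018302), the first step of the pathway, had 14.9, 15.9 and 24.6 CPM in SD_20d and 108, 61.9 and 87.1 CPM in Control and fell by 2.21 ± 0.50 (adjusted p = 0.00451). The flavanone hydroxylase loci F3H-1 LOC110037298 and LOC110032785 fell, with log2 fold changes of -2.08 ± 0.42 and -2.34 ± 0.51 (adjusted p = 0.00217 and 0.00335). Late steps parted, with DFR (LOC110022255) up by 1.68 ± 0.18 and ANS (LOC110019740) lower at -1.98 ± 0.31 (adjusted p = 2.96e-05 and 0.000395).

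Against LD_20d, which shared age and temperature with SD_20d and differed in photoperiod, fewer genes were called: 144 of 16700 (0.862%), with 28 higher and 116 lower in SD_20d. LD_20d against Control gave 4002 called genes (24%), 1904 higher and 2098 lower. SD_20d against Control and LD_20d against Control share the 3 Control libraries, so their values are set side by side with no measure of likeness. The count against LD_20d leaned on single libraries: it was 14 without SD_20d replicate 2, 5 without SD_20d replicate 3, 79 without Control replicate 1, 95 without Control replicate 3, 24 and 27 without LD_20d replicates 1 and 3, and 885 without LD_20d replicate 2.

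Of the antenna genes, all 13 fell in both groups against Control, with a median of -1.47 in SD_20d and -2.18 in LD_20d. Of these, 4 were called higher in SD_20d than in LD_20d, against 0.168% of all genes tested. Single libraries of SD_20d, Control and LD_20d were left out in turn. LHCB3 was then called in 3 of 9 fits, LHCA4 in 5, CAB37 in 6 and CAB8 in 8. For LHCB3 the log2 fold change over Control was -2.59 ± 0.37 in SD_20d and -4.50 ± 0.41 in LD_20d. For LHCA4 it was -3.07 ± 0.21 in SD_20d and -4.16 ± 0.23 in LD_20d. Antenna transcripts thus lay further below Control in LD_20d than in SD_20d for these members, and CAB37 and CAB8 had the same order. In the Calvin cycle 16 genes fell in SD_20d and 3 in LD_20d, with medians of -0.86 and -0.23. Of its 21 tested members, 4 were called lower in SD_20d than in LD_20d, against 0.695% of all genes tested. RPI3 and the transketolase, both among them, were called in 2 and 3 of 9 such fits. PSBS had -1.55 ± 0.21 in SD_20d and -0.30 ± 0.20 in LD_20d over Control. It lay lower in SD_20d than in LD_20d (-1.25 ± 0.20, adjusted p = 0.0155), a call made in 5 of 9 such fits.

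Between SD_20d and LD_20d, 2 of 28 tested clock genes and 1 of 27 tested CAM genes were called, all lower in SD_20d. Both shares were above the 0.862% of all genes tested, on 2 genes and 1 gene. The dawn genes LHY (LOC110025280 and LOC110023014) and LNK1 were not called (adjusted p = 0.985, 0.16 and 0.62). RVE7 had 4.56 ± 0.52 in SD_20d and 7.95 ± 0.54 in LD_20d over Control, and RVE1 had 3.58 ± 0.22 in SD_20d and 5.46 ± 0.23 in LD_20d. COL9 and PPCK1 at LOC110038259, which were not called between SD_20d and Control, had 2.82 ± 0.25 and 5.94 ± 0.80 in LD_20d over Control. BAM3 had 2.18 ± 0.44 in SD_20d and 5.75 ± 0.51 in LD_20d. GI, Adagio-like 3, WRKY70 and PIL13 were not called between SD_20d and LD_20d (adjusted p = 0.122, 0.336, 0.888 and 0.0884), and over Control they had -5.27, -5.12, -5.05 and 5.97 in SD_20d and -4.17, -5.93, -5.17 and 4.77 in LD_20d. In the cell cycle list 93 genes rose in SD_20d and 47 in LD_20d over Control (medians 0.60 and 0.25), and 1 of the 203 was called between SD_20d and LD_20d. The counts that involve LD_20d lean on its replicate 2, which stood apart on these genes: CYCB1-1 had 2.44, 49.6 and 11.7 CPM and KIN12C had 8.65, 53.3 and 18.0 CPM in the LD_20d libraries. Without that library, 20 of 205 tested genes rose in LD_20d over Control, and 34 were higher and 2 lower in SD_20d than in LD_20d.

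**Figure D5:**
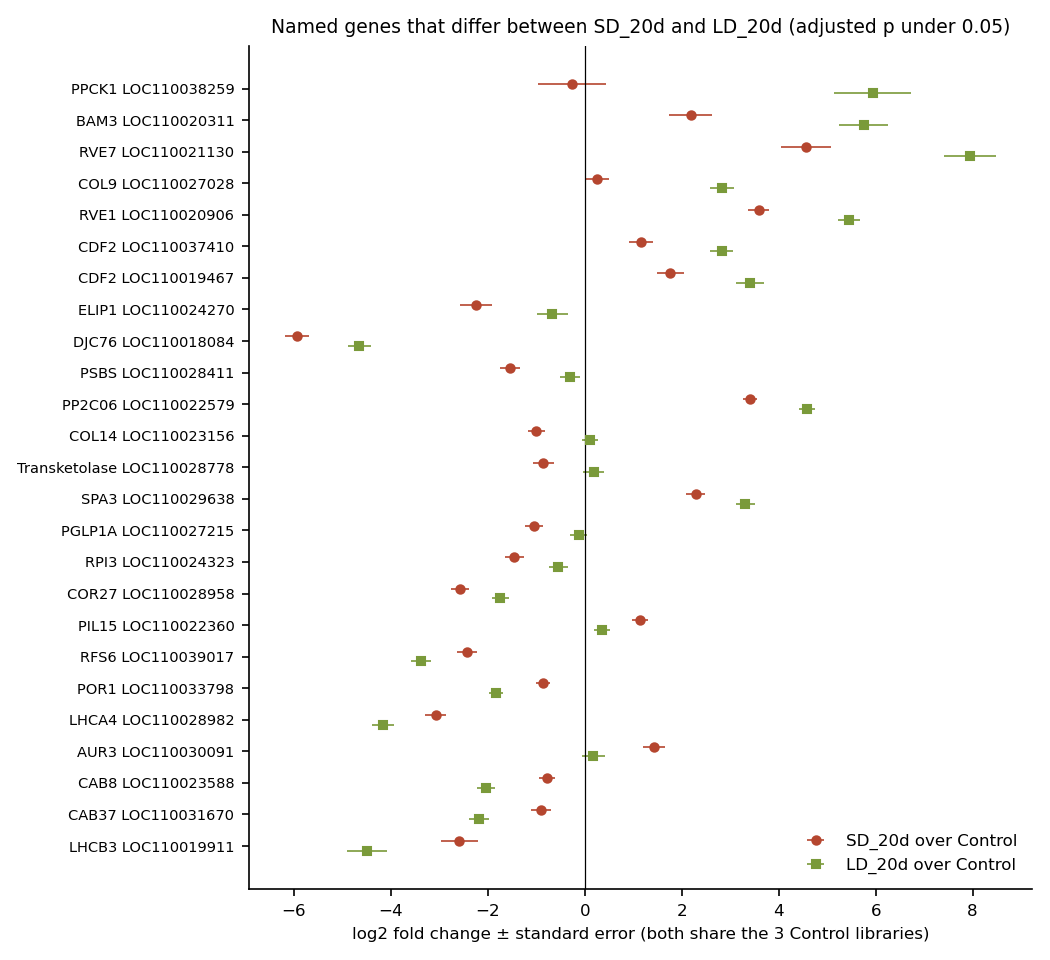
Log2 fold change over Control with standard error in SD_20d (red) and LD_20d (green) for 25 named genes whose difference between SD_20d and LD_20d was called. Both share the Control libraries; PPCK1 lies near 0 in SD_20d and at 5.94 in LD_20d, and LHCB3 lies at -2.59 in SD_20d and -4.50 in LD_20d.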

How the data were processed

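Total RNA of pooled leaves was sequenced with an Illumina kit, per the labels' protocols. The authors deposited read counts per gene (whole numbers, not normalized) and FPKM values, per the file headers, with gene positions and lengths. The submitters' processing notes list DESeq 1.30.0, HTSeq 0.9.1, cutadapt 1.15 and HISAT2 2.0.5 with no roles. Genome build and strand setting are not given in the sources used here, so reads of overlapping and near-identical genes may be shared. The deposited FPKM were used to check the counts: with counts and FPKM of SOC1 exchanged together between 2 groups, all 21144 genes matched within 0.01 reads.

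Counts of all 15 libraries (5 groups) were fitted in R 4.3.3 with edgeR 4.0.16 (TMM, expression filter by group, 1 mean per group, quasi-likelihood F test), with Benjamini-Hochberg adjustment over 16700 genes. DESeq2 1.42.0 and limma-voom (limma 3.58.1) were alternatives, beside RLE scaling, no filter, the 2 groups alone, a replicate block, a size limit and leaving out each library. The test was checked on simulated data.

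The members and lists were chosen with earlier results of these data known. The 38 lists were built from words in gene descriptions, and 7 families were added after values were seen. Genes named by rule were the 8 steepest rises and 8 steepest falls (mean log2 CPM of 2 or more, groups not overlapping, informative description), the called member of each main list with the smallest adjusted p each way, and fixed clock, flowering, CAM, GA2OX and DREB loci. Other genes named were examples chosen after their values were seen. Intervals and floors (3 counts) cover only counting error, as duplicated PCR reads are not separate molecules. Some named loci are not reported here.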

Additional observations from a re-analysis of the deposited data

Results flagged for a closer look

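The 26 named genes below were singled out because their change from Control differed between SD_20d and LD_20d, by the test of SD_20d against LD_20d (edgeR quasi-likelihood test, adjusted p under 0.05, 0.862% of all genes tested). Values are log2 fold changes of SD_20d over LD_20d.

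Among clock, light and flowering regulators, RVE7 was at -3.39 (LOC110021130), RVE1 at -1.87 (LOC110020906), COL9 at -2.57 (LOC110027028), COL14 at -1.11 (LOC110023156), and CDF2 at -1.64 (LOC110019467) and -1.67 (LOC110037410). COR27 was at -0.83, SPA3 at -1.02 and PIL15 at 0.79. Dawn genes RVE7 and RVE1 rose over Control in both groups and by less in SD_20d.

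Antenna genes lay higher in SD_20d, with LHCA4 at 1.09, LHCB3 at 1.91, CAB37 at 1.27 and CAB8 at 1.26, and so did protochlorophyllide reductase POR1 at 0.96. Other chloroplast genes lay lower in SD_20d: PSBS at -1.25, ELIP1 at -1.57, DJC76 at -1.28, RPI3 at -0.91, PGLP1A at -0.92 and the transketolase LOC110028778 at -1.05.

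In carbon and sugar metabolism, PPCK1 (LOC110038259) was at -6.21, BAM3 at -3.57 and RFS6 (LOC110039017) at 0.95. The phosphatase PP2C06 was at -1.17 and the mitotic kinase AUR3 at 1.26. GA2OX8 was at -9.30, a fitted value that depends on the prior count, because the gene had no count in SD_20d.

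All 26 kept their direction in every alternative run. With single libraries left out, RVE7, RVE1, PP2C06 and COL9 were called in 9 of 9 fits. The fewest calls were for RPI3 and PIL15, in 2 of 9 fits. COR27, ELIP1, LHCB3, the transketolase and RFS6 were called in 3 of 9, and PGLP1A in 4 of 9. Without SD_20d replicates 1, 2 and 3, 20, 6 and 4 of the 26 were called, without Control replicates 1, 2 and 3, 18, 25 and 23, and without LD_20d replicates 1, 2 and 3, 11, 26 and 9.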

How the results depend on the processing

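Calls between SD_20d and Control numbered 5864, and 5870 with RLE scaling, 5714 of 19455 genes with no filter on low counts, 6683 in a fit to the 2 groups alone, 6279 with DESeq2, 6013 with limma-voom and 4304 to 5897 with single libraries left out. Of 5864 calls 4781 were also made without Control replicate 2. Requiring an absolute log2 fold change of at least 1 left 2504. Between SD_20d and LD_20d, 144 calls became 825 with DESeq2, 5 to 885 with single libraries left out and 78 with that size limit, while LD_20d against Control gave 1675 calls with it and 4002 without it. The cause of the DESeq2 count was not tested. The size limit by its construction removes genes.

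Replicate numbers are shared by the groups, but same-numbered SD_20d and Control libraries did not all deviate together (0.18, 0.22 and -0.10 across genes), and SD_20d replicate 1 correlated best with Control replicate 3 (0.23). With the replicate block 5576 genes were called between SD_20d and Control, 103 between SD_20d and LD_20d and 3676 between LD_20d and Control. Among named genes it removed the calls of TCP3 and ME1.

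Of 160 named genes tested 142 were called, 130 of these in every alternative and 12 not in at least 1, and 0 reversed. Many were named for their calls or after their values were seen, so these shares do not describe genes at large. The floor of 3 counts per library, 0.231 to 0.267 CPM in SD_20d and 0.223 to 0.233 CPM in Control, limits what can be said of the florigen loci. On simulated data with this design, 59 of 100 genes changed by 1 on the log2 scale and 83 of 100 changed by 2 were recovered. Only these genes were changed among 16523, and there were 4 false calls. In the real comparison 5864 genes were called, so the simulated shares do not give the sensitivity of SD_20d against Control.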
